A study of Mus musculus with 4 samples.

Results

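The AP-1 and Egr immediate early factors examined here are 10 genes, taken by symbol from the 21965 genes of the deposited tables: the Fos family (Fos, Fosb, Fosl1, Fosl2), the Jun family (Jun, Junb, Jund), the zinc finger factors Egr1 and Egr3, and Atf3. All 10 were found, each as 1 transcript row with an accepted quantification in both libraries. RNA sequencing compared sciatic nerves of control mice with those of mice carrying a conditional knockout of Zeb2, a zinc finger repressor, at postnatal day 7. The mice were of mixed strain background, and each sample was RNA from pooled nerves, frozen on dry ice after removal. The labels name 2 samples a group, but the tables used here hold 1 library of each, so no value has a replicate and no test between the groups was possible. The Cre line and the deleted exons are not given in the sources used here. Neither is the time between death and freezing.

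AP-1 is a family of dimers. A Fos protein pairs with a Jun protein through a leucine zipper, and the pair binds DNA through the adjoining basic region. Jun proteins also pair with one another and with Atf proteins. Most of these genes, with Egr1 and Egr3, are immediate early genes: serum, growth factors, calcium and stress switch them on within minutes, through ERK and other kinases, from factors already present in the cell. In Schwann cells, the myelin-forming glia of the nerve, Jun is known as a negative regulator of myelination and as the driver of the repair cell after injury, and it opposes Egr2, the activator of myelin genes. The same genes also respond to dissection and handling of tissue.

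Stretches upstream of the start site are shown for 4 members, chosen because they held letters known from AP-1, CREB, Egr or Zeb binding. The table of RefSeq promoters (build GRCm38.p6), with 250 bases before and 50 after each start, held 7 of the 10 members (Fos, Fosb, Fosl2, Jun, Junb, Jund and Atf3). Capitals mark exact matches on either strand, and positions count back from the start site, whose first upstream base is -1.
Fos, chr12:85473790-85473869, plus strand, -100 to -21: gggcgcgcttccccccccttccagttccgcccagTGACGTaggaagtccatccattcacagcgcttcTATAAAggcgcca
Fosb, chr7:19310076-19310205, minus strand, -160 to -31: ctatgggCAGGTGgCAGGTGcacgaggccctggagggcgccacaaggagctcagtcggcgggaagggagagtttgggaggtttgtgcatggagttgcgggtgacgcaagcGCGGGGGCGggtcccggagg
Fosl2, chr5:32136372-32136421, plus strand, -100 to -51: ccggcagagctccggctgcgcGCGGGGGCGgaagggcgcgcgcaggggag
Jun, chr4:95052253-95052322, minus strand, -100 to -31: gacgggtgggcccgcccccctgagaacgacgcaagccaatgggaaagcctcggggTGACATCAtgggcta

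In Fos the capitals mark TGACGT at -66 to -61, letters that the full cAMP response element also contains, and the TATA sequence TATAAA at -33 to -28. Of all 32851 promoters, 7.51% held TGACGT and 13.6% held TATAAA. Atf3 also held TGACGT, on the opposite strand at -8 to -3, and Junb held TATAAA from the first base after its start. In Jun they mark TGACATCA at -45 to -38, an AP-1-like octamer found in 3.62% of promoters. Fosb and Fosl2 each held a match to the Egr element GCGNGGGCG, as did 5.55% of promoters. Fosb also held the Zeb-type E-box CACCTG, read as CAGGTG on the printed strand, at -153 to -148 and again at -146 to -141, 1 base apart. CACCTG occurred in 20.2% of promoters and at least 2 copies in 2.88%. In 7 promoters, Fosb included, 2 copies in the same direction, on either strand, lay 1 base apart. The consensus AP-1 element TGANTCA, the full cAMP response element TGACGTCA and the CArG box of serum response factor were in 0 of the 7 members' windows and in 7.81%, 1.79% and 1.63% of all promoters. A match says only that these letters are present, and sites outside the window were not searched.

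The control table corresponded to an estimated 29729619 reads on RefSeq transcripts and the Zeb2 cKO table to 20288183. Levels are FPKM, fragments scaled to the length of the transcript and to the number mapped, so they can be compared between genes. Intervals are 95% counting intervals on estimated reads and do not cover the spread between animals or pools. Ratios are plain FPKM ratios, and log2 ratios were taken after adding 1 FPKM to both values, which understates changes of low genes. Zeb2, the targeted gene, was at 34.4 FPKM in control nerve and 19.5 FPKM in Zeb2 cKO nerve, in the direction of the labels. Of 12903 genes with a mean of at least 1 FPKM, 8.59% had a log2 ratio of 1 or more (1109 higher) and 6.25% of -1 or less (806 lower), and the median was 0.18. With the Zeb2 cKO values rescaled so that the median gene had a plain ratio of 1, the split was 782 higher and 960 lower, or 6.06% and 7.44%.

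Of the 10 members, 9 had a mean of at least 1 FPKM. The control level of Fosb was below 1 FPKM, so it passed that limit only through its Zeb2 cKO value. In Zeb2 cKO nerve 3 of the 9 were at least 2-fold higher on the log2 scale with 1 FPKM added (Egr1, Fosb and Fos), against 8.59% of all genes, and 0 were at least 2-fold lower, against 6.25%. The log2 ratio was above 0 for 8 members and below 0 for Atf3. Their median was 0.87, beside 0.18 for all genes. After rescaling to the median gene it was 0.67, with 2 members at least 2-fold higher (Egr1 and Fosb). The member nearest above the 2-fold limit was Fos, at 1.11, and the nearest below it was Jun, at 0.88.

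**Figure D1:**
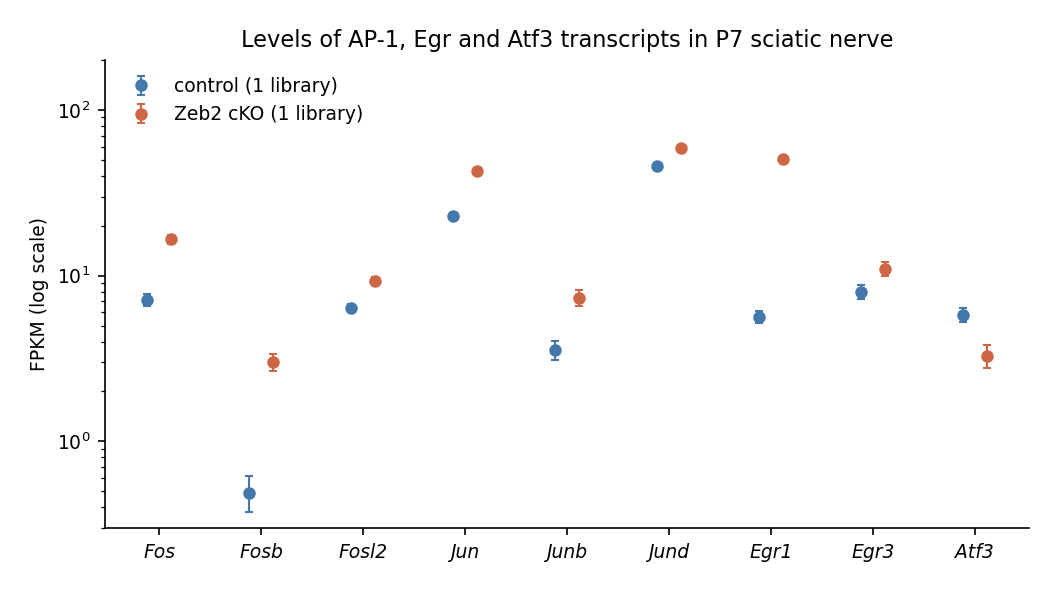
FPKM on a log axis of 9 members in control nerve (blue) and Zeb2 cKO nerve (orange), 1 library each, with bars for 95% counting intervals. Fosl1, listed at 0 in control nerve, is not drawn. Egr1 shows the widest gap, from 5.62 to 50.7 FPKM, and Atf3 alone lies lower in Zeb2 cKO nerve.

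The Jun family supplied most AP-1 transcripts in both libraries. Its summed level was 5.19 times that of the Fos family in control nerve and 3.79 times in Zeb2 cKO nerve. Jund, the member most cells express without stimulation (chromosome 8, 73221638 to 73224515, mm9), was at 46.2 FPKM in control nerve and 59.0 FPKM in Zeb2 cKO nerve. It was the highest of the 10 members in both. The ratio was 1.28 (counting interval 1.22 to 1.33), the smallest increase among the measured members, and it became 1.10 after rescaling to the median gene. Jund was therefore higher by little more than the median gene.

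Jun encodes c-Jun (chromosome 4, 94715727 to 94718913). It was at 23.0 FPKM in control nerve and 43.0 FPKM in Zeb2 cKO nerve, a ratio of 1.87 (1.78 to 1.97). Its log2 ratio of 0.88 became 0.67 after rescaling, so it stayed below 2-fold on both scales. Relative to Jund, Jun went from 0.498 of its level in control nerve to 0.730 in Zeb2 cKO nerve. Junb, a Jun protein that often dampens c-Jun activity (chromosome 8, 87500808 to 87502647), was at 3.55 and 7.33 FPKM. Its plain ratio of 2.06 (1.74 to 2.45) lay above 2, while the log2 ratio with 1 FPKM added was 0.87. All 3 Jun genes are without introns: the length of each row equalled its genomic span. That held for 2.58% of measured genes, small RNA genes left out.

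The summed level of the Fos family went from 14.0 FPKM in control nerve to 28.9 FPKM in Zeb2 cKO nerve, a ratio of 2.06. Its makeup differed between the libraries. Fos, the founding member (chromosome 12, 86814851 to 86818219), was at 7.12 FPKM in control nerve and 16.5 FPKM in Zeb2 cKO nerve, 2.32-fold higher (2.08 to 2.59). It made up 50.8% of the family sum in control nerve and 57.2% in Zeb2 cKO nerve. After rescaling to the median gene its plain ratio was 2.01 and its log2 ratio 0.91, so its place past 2-fold depended on the scaling and the added 1 FPKM.

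Fosb, whose shorter splice form lacks the activation domain and builds up on repeated stimulation (chromosome 7, 19888045 to 19895394), was at 0.487 FPKM in control nerve. In Zeb2 cKO nerve it was at 3.01 FPKM, 6.18-fold higher (4.70 to 8.22), on about 65 and 276 reads. The log2 ratio was 1.43 with 1 FPKM added and 2.41 with 0.1 FPKM added. Fosb supplied 3.48% of the family sum in control nerve and 10.4% in Zeb2 cKO nerve. The tables hold 1 Fosb row, so its splice forms cannot be told apart.

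Fosl2, which encodes Fra-2 (chromosome 5, 32438845 to 32460212), differed less, at 6.42 and 9.32 FPKM, 1.45-fold (1.35 to 1.57). Its share of the family sum was 45.8% in control nerve and 32.3% in Zeb2 cKO nerve. Fos and Fosl2 were thus nearly level in control nerve, at a ratio of 1.11, and Fos stood at 1.77 times Fosl2 in Zeb2 cKO nerve. Fosl1, which encodes Fra-1 (chromosome 19, 5447698 to 5455938), was listed at 0 in control nerve and rested on about 1 read in the other, at 0.0253 FPKM. The counting interval of the control value reached up to 0.0608 FPKM, so Fosl1 gives no ratio. Its locus overlaps Ccdc85b, and it was not counted among the measured members. The other 9 members overlapped no other row of the tables.

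**Figure D2:**
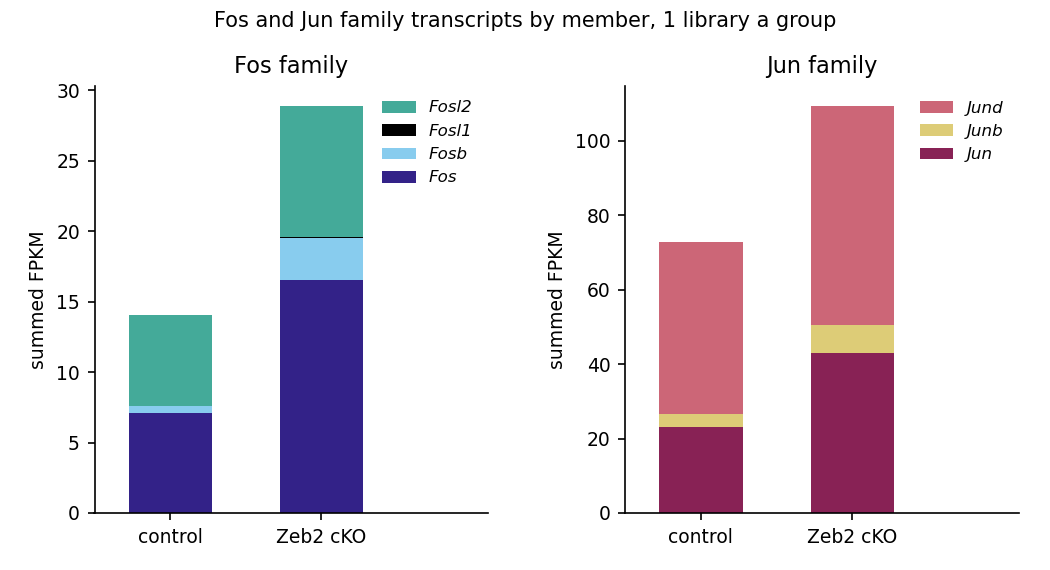
Summed FPKM of the Fos family (left) and Jun family (right) in the libraries of control and Zeb2 cKO nerve, 1 library each, with bars from 0 and colours for the members. The Fos family stands at 14.0 and 28.9 FPKM and the Jun family at 72.7 and 109.4 FPKM, and the Fosb block widens from 3.48% to 10.4% of its bar.

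Egr1 differed most. It encodes a zinc finger factor that serum response factor switches on (chromosome 18, 35020861 to 35024610). Egr1 was at 5.62 FPKM in control nerve and 50.7 FPKM in Zeb2 cKO nerve, 9.01-fold higher (8.27 to 9.82). By log2 ratio (2.96) it ranked 93 from the top of the 12903 measured genes. Its level exceeded that of 36.9% of them in control nerve and 89.8% in Zeb2 cKO nerve. Rescaling to the median gene left a ratio of 7.78.

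Egr3, a paralog that calcium signals also switch on (chromosome 14, 70477252 to 70479964), differed less. It was at 7.94 FPKM in control nerve and 11.0 FPKM in Zeb2 cKO nerve, 1.38-fold (1.20 to 1.59), and 1.19-fold after rescaling. Egr1 stood at 0.708 of the Egr3 level in control nerve and at 4.62 times that level in Zeb2 cKO nerve. Egr2, the Egr factor of myelination and a member of the list of other immediate early genes, went the other way, from 54.5 to 8.79 FPKM. The order of the Egr genes was therefore Egr2, Egr3, Egr1 in control nerve and Egr1, Egr3, Egr2 in Zeb2 cKO nerve. Egr4 was listed at 0 in both.

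Atf3, a stress-induced bZIP factor that marks injured neurons and Schwann cells (chromosome 1, 192994176 to 193007212), was the member with the lower level in Zeb2 cKO nerve. It was at 5.81 FPKM in control nerve and 3.27 FPKM in Zeb2 cKO nerve, 1.78-fold lower (1.48 to 2.15). The log2 ratio was -0.67, and -0.83 after rescaling, within 2-fold on both. The plain ratio after rescaling was 0.486, just past 2-fold lower.

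**Figure D3:**
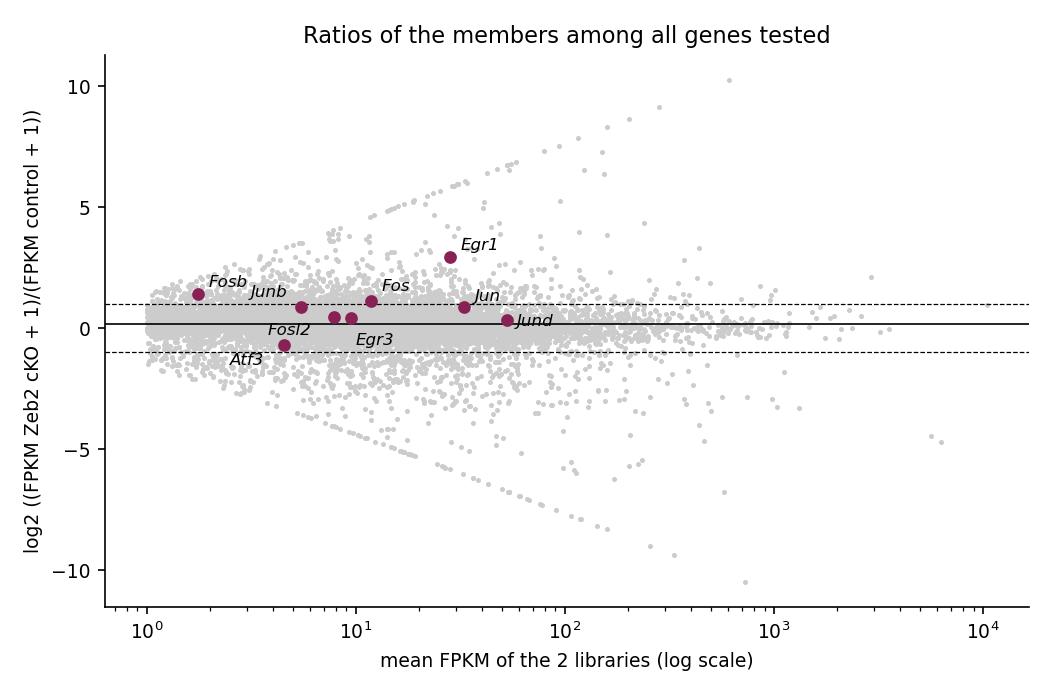
Log2 ratio of Zeb2 cKO to control FPKM, with 1 FPKM added, against the mean FPKM on a log axis for all 12903 measured genes (grey) and 9 members (dark). Dashed lines mark 2-fold and the solid line the median gene (0.18); Egr1, Fosb and Fos lie above the upper dashed line.

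In control nerve the order of levels was Jund, Jun, Egr3, Fos, Fosl2, Atf3, Egr1, Junb, Fosb and Fosl1. The counting intervals of neighbours from Egr3 through Egr1 overlapped, so that stretch of the order is not resolved. In Zeb2 cKO nerve it was Jund, Egr1, Jun, Fos, Egr3, Fosl2, Junb, Atf3, Fosb and Fosl1. There only Atf3 (2.78 to 3.82 FPKM) and Fosb (2.67 to 3.39 FPKM) had overlapping intervals among neighbours with more than 1 read. The spread between animals, which these libraries do not give, could reorder more of them.

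Other immediate early genes were split between the directions. Of 37 listed genes 33 were measured, of which 5 were at least 2-fold higher and 3 at least 2-fold lower in Zeb2 cKO nerve. The median log2 ratio was 0.50, and 23 of the 33 were above 0. Trib1, a pseudokinase that directs proteins to degradation, went from 2.35 to 9.95 FPKM, 4.23-fold higher. Socs3, an inhibitor of cytokine receptor signalling, was 2.97-fold higher, from 2.92 to 8.65 FPKM. The serum-response genes Ier3, Ier2 and Ier5l were 2.64-fold, 2.47-fold and 2.21-fold higher, Ier5l not past 2-fold after rescaling (log2 ratio 0.85). Besides Egr2, which was 6.21-fold lower, the orphan nuclear receptor Nr4a2 went from 19.4 to 6.16 FPKM, 3.14-fold lower. Sgk1, a kinase that glucocorticoids and serum switch on, went from 48.6 to 18.2 FPKM, 2.67-fold lower. Counts for this list and for those that follow stand beside 8.59% higher and 6.25% lower of all measured genes, and no difference between a list and other genes was tested.

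**Figure D4:**
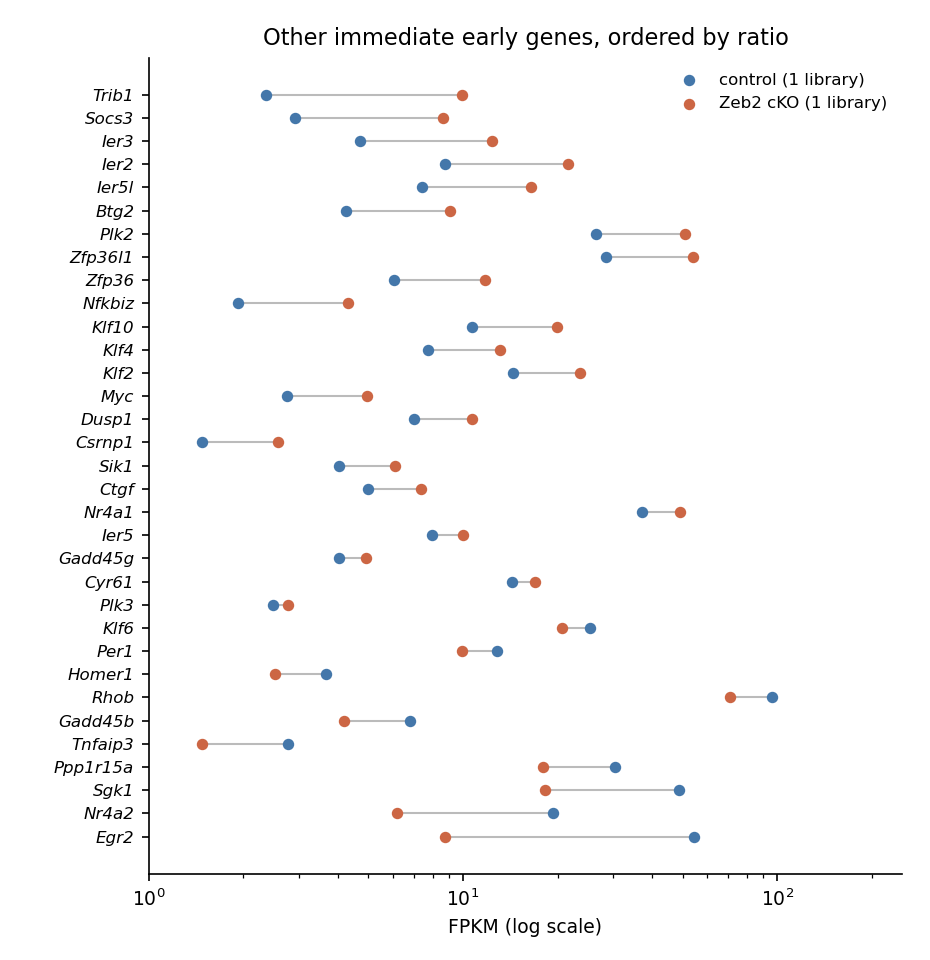
FPKM on a log axis of the 33 measured genes of the other immediate early list in the libraries of control (blue) and Zeb2 cKO (orange) nerve, 1 library each, ordered by log2 ratio. Trib1 heads the plot at 2.35 and 9.95 FPKM, and Egr2 closes it at 54.5 and 8.79 FPKM.

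Of 23 measured upstream activators, among them serum response factor, its ternary complex partners and the ERK and RSK kinases, 0 were at least 2-fold higher and 1 at least 2-fold lower, against 8.59% and 6.25% of all genes. The median log2 ratio was 0.11. The 1 lower gene was Rps6ka2, an RSK kinase, which went from 16.7 to 4.61 FPKM, 3.62-fold lower. Mapk3, which encodes ERK1, and Crtc3, a CREB coactivator, had the next largest log2 ratios, -0.72 and -0.69. Srf itself was at 10.2 and 10.6 FPKM.

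Mapk8 and Mapk9, the JNK kinases that phosphorylate c-Jun, had log2 ratios of 0.40 and -0.08. Mapk10, the third JNK gene, was below 1 FPKM in both libraries and not counted as measured. It went from 0.108 to 0.777 FPKM, 7.16-fold higher (4.73 to 11.2), on about 28 and 136 reads. Of 16 measured genes of the JNK pathway and of Jun turnover, 1 was at least 2-fold higher and 1 at least 2-fold lower, with a median of -0.04. Mapk8ip1, the scaffold JIP1, was abundant in control nerve at 192.2 FPKM and stood at 30.6 FPKM in Zeb2 cKO nerve, 6.27-fold lower. Map3k1, a kinase at the top of the cascade, was 2.21-fold higher, and not past 2-fold after rescaling (log2 ratio 0.86). Fbxw7, a ubiquitin ligase subunit that targets c-Jun, had a log2 ratio of 0.84. The Egr corepressors Nab1 and Nab2 had log2 ratios of 0.28 and -0.45.

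Among 20 measured bZIP partners outside the members, 1 was at least 2-fold higher and 1 at least 2-fold lower, with a median of 0.23. Cebpd, a C/EBP factor of acute responses, went from 5.52 to 13.6 FPKM, 2.47-fold higher, and fell just short of 2-fold after rescaling (0.97). Maf, a large Maf protein, went from 47.0 to 20.4 FPKM, 2.30-fold lower. Atf5, a factor of stress responses, had a log2 ratio of 0.85. The wider bZIP family thus had a median near that of all genes.

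Textbook target genes of AP-1 had a median log2 ratio of 0.85 over the 14 measured of 22 listed, with 6 at least 2-fold higher and 2 at least 2-fold lower. Hbegf, a ligand of the EGF receptor, went from 13.5 to 89.9 FPKM, 6.66-fold higher. Timp1, an inhibitor of matrix metalloproteinases, was 5.85-fold higher, from 6.12 to 35.8 FPKM. The chemokine Ccl2, the hyaluronan receptor Cd44, osteopontin (Spp1) and cyclin D1 (Ccnd1) were the others, the last 2 not past 2-fold after rescaling (0.99 and 0.81). The metallothioneins Mt1 and Mt2 went the other way, 2.88-fold and 2.73-fold lower. Of the 10 measured Egr1 targets, which share Cd44 and Tgfb1 with the AP-1 list, 3 were at least 2-fold higher and 2 at least 2-fold lower, with a median of 0.68. F3, tissue factor, went from 5.30 to 49.3 FPKM, 9.31-fold higher. The adhesion receptors Cd44 and Icam1 were 3.05-fold and 2.43-fold higher, Icam1 not past 2-fold after rescaling (0.86). Pdgfa, a growth factor, was 2.33-fold lower.

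Genes commonly tied to c-Jun in injured Schwann cells were measured for 7 of 12 listed, 5 of them at least 2-fold higher and 1 (Ngfr) at least 2-fold lower, with a median of 1.12. Cdh2 (N-cadherin), Ccl2, which the AP-1 list also holds, and Sox2, a factor of immature Schwann cells, had log2 ratios of 2.97, 2.24 and 1.70. Ngfr, the neurotrophin receptor p75, had one of -1.38. Cdh2, Sox2, Ngfr and Gap43, all on this list, are also among the immature or nonmyelinating Schwann cell markers given below. Lif, a cytokine, went from 0.630 to 2.43 FPKM and was not past 2-fold after rescaling (0.93). Lif passed the limit of 1 FPKM only through its Zeb2 cKO value. The trophic factor genes Gdnf, Artn and Bdnf were below 0.6 FPKM in both libraries. The hedgehog ligand gene Shh was too low to be counted as measured, on about 2 reads in control nerve and 80 in Zeb2 cKO nerve.

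**Figure D5:**
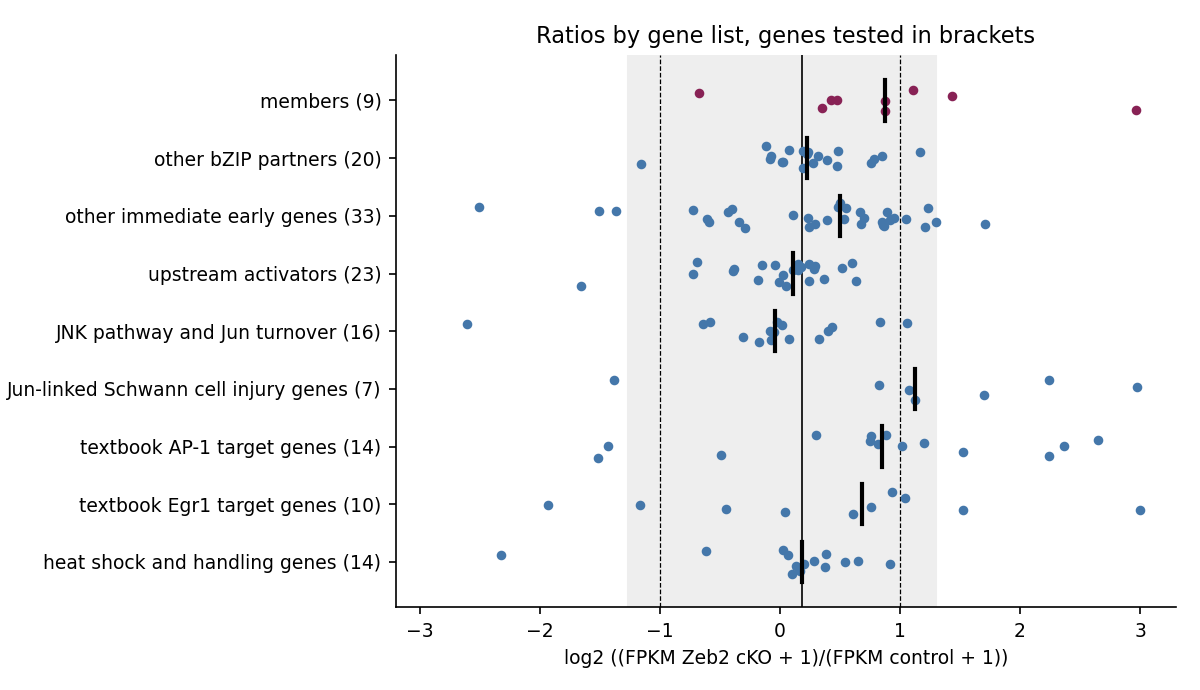
Log2 ratio of Zeb2 cKO to control FPKM, with 1 FPKM added, for each measured gene of the members (dark) and 8 other lists (blue), with short bars for list medians. The solid line is the median of all measured genes (0.18), dashed lines mark 2-fold and the grey band spans the 5th to 95th percentile of all measured genes (-1.26 to 1.30); the members' median lies at 0.87 and that of the heat shock genes at 0.18.

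Across the genome, measured genes with the AP-1 element TGANTCA in the promoter window numbered 553, of which 12.3% were at least 2-fold higher and 8.50% were at least 2-fold lower. Among all 9069 measured genes with a promoter in the table the shares were 7.82% and 5.47%. The median log2 ratio was 0.20, beside 0.18. Some other letters also had both shares above those of all 9069: 12.99% and 6.05% for the 793 genes with TATAAA. For the 149 genes with a CArG box they were 10.1% and 14.1%. The 1822 genes with CACCTG had 9.11% and 7.30%. For the 1147 genes with GCGNGGGCG the shares were 7.76%, just below that of all 9069, and 6.28%, above it. For the 321 genes with TGACGTCA the shares were lower in both directions, 3.43% and 2.80%. The 1177 genes with TGACGT, which include those with TGACGTCA, had 4.42% and 2.97%. The 188 genes with TGACATCA had 9.04% and 7.45%. These are descriptions of the letters in the windows and show no binding.

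Other values moved with those of the members, and their part in the members' differences was not tested. In bulk nerve, fewer cells of a type and less RNA per cell cannot be told apart. Of 14 measured heat shock and handling genes, 0 were at least 2-fold higher and 1 at least 2-fold lower: Cryab, a small heat shock protein that muscle and myelinating cells also express, went from 682.2 to 135.1 FPKM. The list's median was 0.18, with 12 of the 14 above 0. Hsph1 and Bag3, a chaperone and a cochaperone, had log2 ratios of 0.91 and 0.65. The plain ratios of Hsph1 and Hspa1b, also on this list, were 2.01 (1.84 to 2.20) and 2.04 (1.51 to 2.76), just above 2. After rescaling to the median gene their log2 ratios were 0.72 and 0.42. Hspa1b was at 0.791 FPKM in control nerve and 1.61 FPKM in Zeb2 cKO nerve. It passed the limit of 1 FPKM only through the Zeb2 cKO value. All 17 skeletal muscle markers and all 12 markers of myelinating Schwann cells were at least 2-fold lower, with sums of 9337 and 1149 FPKM and of 28221 and 1332 FPKM. Fibroblast markers summed to 5694 and 9413 FPKM (5 of 9 were at least 2-fold higher), perineurial markers to 80.5 and 264.9 FPKM (5 of 7), adipocyte markers to 214.6 and 522.6 FPKM (4 of 4) and endothelial markers to 154.5 and 252.3 FPKM (0 of 9). Pericyte and smooth muscle markers summed to 207 and 314.9 FPKM, mast cell markers to 41.2 and 85.5 FPKM and erythroid markers to 121 and 361.9 FPKM, with 2 of 8, 2 of 5 and 3 of 5 that were at least 2-fold higher. After rescaling to the median gene these 3 counts were 0, 0 and 2, while 3 fibroblast, 5 perineurial and 2 adipocyte markers were at least 2-fold higher. Macrophage, neutrophil and neuronal markers had 0 members at 2-fold, with sums of 95.5 and 114.9, 32.9 and 36.5, and 35.5 and 25.5 FPKM. Immature or nonmyelinating Schwann cell markers summed to 106.6 and 499.1 FPKM (4 of 8 were at least 2-fold higher, 2 lower). Most of that difference came from Gfap, an intermediate filament gene, which went from 0.914 to 300.1 FPKM and passed the limit of 1 FPKM only through its Zeb2 cKO value. The lineage markers Sox10, S100b and Erbb3 summed to 367 and 125.1 FPKM. Melanocyte markers summed to 15.0 and 3.54 FPKM, with Mlana listed at 0 in 1 library, and the T and B cell markers, none of them measured, to 1.01 and 1.30 FPKM.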

How the data were processed

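The members and gene lists were chosen with earlier results of these data known. Reads were processed with CASAVA, TopHat, Cufflinks and Cuffdiff on mm9, per the submitters' processing notes, without versions. Per the file headers, the deposited tables give FPKM and coverage for each RefSeq transcript. FPKM is the authors' Cufflinks estimate. The deposited coverage signal is unscaled read depth per base. Each table is named in the descriptions of both samples of a group and was assigned to that group.

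Rows without status OK in both libraries (295 of 28107) were left out and FPKM was summed by symbol, which left 21965 genes. Genes with a mean of at least 1 FPKM (12903) were described by log2((Zeb2 cKO + 1)/(control + 1)) and a 2-fold limit. Reads were estimated as coverage times length over 52.6 bases, the median of the lowest cluster of such products. Intervals are exact Poisson for levels and Clopper-Pearson for ratios (95%), cover counting error only and are approximate.

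Named genes were the 10 members, Zeb2 and, in each other list except the cell type markers, which are summarised by sums, the 3 largest absolute log2 ratios with all 2-fold genes where these were 5 or fewer. Some genes that this rule names are left out of the text. Spp1, Ccnd1, Mt1, Mt2, Srf, Mapk8, Mapk9, Mapk10, Gfap, Egr4, Gdnf, Artn, Bdnf, Shh, Tgfb1, Sox10, S100b, Erbb3, Hspa1b and Mlana were named after their values were seen. So were Socs3, Ier2, Ier3, Ier5l, Sgk1, Ngfr, Lif and Gap43. The motifs TGACATCA and TGACGT were also added after the data were examined. Of 287 listed symbols 285 matched directly and 2 through RefSeq names. Positions are 1-based mm9, and promoters are RefSeq, GRCm38.p6. Protein identity was planned and was not analysed here. No strand of the reads was used. The counting code was tested on simulated data. Python 3.11.15, pandas 2.3.3 and scipy 1.17.1 were used.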

Additional observations from a re-analysis of the deposited data

How the results depend on the processing

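No paired analysis was possible because only 1 control and 1 Zeb2 cKO library were used, which also meant that neither could be left out. The sign of each member's log2 ratio was kept in all 100 recomputed values, but only the rescalings could have changed a sign. Adding another FPKM value cannot turn a sign, and the filters leave each member's value as it is. Egr1 stayed between 2.39 and 3.15. With 5 FPKM added in place of 1, 1 member was 2-fold or more higher (3.70% of all genes) and the members' median was 0.53. A 1.5-fold limit gave 5 members higher and 1 lower, beside 19.7% and 9.81% of all genes, and a 3-fold limit 1 higher, beside 3.11%. The members 2-fold or more higher were 2 after rescaling to the median gene (6.06% of all genes) or to the upper quartile (6.61%) and 3 after rescaling to the sum without myelin and muscle markers (7.04%). They were 2 of 7 at a mean of at least 5 FPKM (8.12%), 3 of 10 with no filter (5.24%) and 4 with 0.1 FPKM added (12.1%). Each member has 1 row, so transcript choice and row status could not change its value.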
